A study of Mus musculus with 16 samples.

Results

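Heat shock proteins and chaperonins help other proteins fold, and 85 protein-coding genes of these families were examined among the 49585 gene identifiers in the deposited gene tables. The members were selected by their GENCODE symbols: names starting with Hsp followed by a digit or a letter from a to e, Hsph1, the Dnaja, Dnajb and Dnajc genes, Cct2 to Cct8 with their variants, Tcp1, Hsf1 and Hsf2. The symbol rule uses no measured value, but it was set with earlier results of these data known. They comprise 11 Hsp70 genes, 3 Hsp110 genes, 3 Hsp90 genes, 45 J proteins, 9 chaperonin genes of the CCT type, Hspd1 and Hspe1 of the mitochondrial chaperonin, 8 genes named as small heat shock proteins, and 4 regulators or partners (Hsf1, Hsf2, Hspbp1 and Hspbap1).

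The RNA came from 2-cell mouse embryos grown in KSOM medium, with a DBA sire and a dam that was an F1 hybrid (C57BL/6J × CBA/H). The labels give 16 libraries, 4 of them of embryos that were not injected. A further 6 were of embryos that received double-stranded RNA of LacZ, a bacterial gene, as zygotes. The other 6 were of embryos that received Suv39h2 double-stranded RNA. Suv39h2 encodes a methyltransferase of lysine 9 on histone H3. The design text describes each library as a pool of 5 embryos, whereas the extraction label names a single embryo, and the treatment label names Suv39h1 messenger RNA, which no group label mentions. The groups are called non-injected, LacZ control and knockdown here. Nothing in the labels says whether libraries of a group came from separate litters. The p-values may therefore measure technical spread or spread between embryos of the same litter, and not spread between litters. The comparison of knockdown with LacZ control asks what less Suv39h2 does among injected embryos, and that of LacZ control with non-injected embryos asks what injection and double-stranded RNA do.

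All fold changes, standard errors (given after ±) and p-values below are those of the authors' deposited tables, tested by the authors with DESeq2, and a gene is said to be called when its adjusted p is under 0.05. The tables hold no values of single libraries, so neither the depth nor the overlap of the groups can be given. Suv39h2 itself stood at -1.95 ± 0.28 in knockdown over LacZ control (adjusted p = 4.72e-08) and 0.16 ± 0.29 in LacZ control over non-injected (adjusted p = 0.998) in the authors' deposited tables, the directions the labels call for. The 3 comparisons share their groups, and on the log2 scale the value for knockdown over non-injected is the sum of the other two to within 4.16e-08.

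Hsp70 proteins bind short exposed stretches of unfolded protein and let go when they exchange ADP for ATP. J proteins bring them their clients and trigger the ATPase, while Hsp110 proteins and Hspbp1 drive the exchange of nucleotide. Hsp90 takes over partly folded kinases and receptors, and the CCT ring encloses actin, tubulin and other proteins of the cytosol. The Hsp60 and Hsp10 pair, encoded by Hspd1 and Hspe1, does the same in mitochondria, and small heat shock proteins hold unfolded proteins without ATP. Hsf1 and Hsf2 bind heat shock elements, made of alternating GAA and TTC units, in the promoters of many of these genes. Hsp70 genes are known among the earliest genes that the mouse embryo transcribes.

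The promoters that hold such elements are shown first. RefSeq windows on GRCm38.p6, from 250 bases before to 50 bases after each start site, were found by symbol for 69 of the 85 members. The 16 members without a window include Hspa8, Hsp90aa1 and Hsp90ab1, whose promoters were therefore not searched. A heat shock element of 3 units (GAA and TTC in alternation, with any 2 bases between units, both strands) was in the windows of 4 of these 69 members (5.80%), beside 0.662% of all 27025 genes with a window. The 4 were Hspd1, Hspe1, Dnajb6 and Hsph1. Matches of 2 units (GAANNTTC or TTCNNGAA), which every match of 3 units also contains, were in 19 of 69 members (27.5%) and in 17.0% of all genes. Hspa1a, Hspa1b and Hspb1 had matches of 2 units only. The element of Hspe1 lies between Hspe1 and the Hspd1 start at position 55087932, 216 bases from the Hspe1 start, so the same letters stand on the other strand of the Hspd1 window. A further annotated Hspd1 start lies inside Hspe1. The capitals mark the letters that match, and each sequence reads 5′ to 3′ on the strand of its gene:
Hspe1, chr1:55088053-55088081, plus strand: ggtccgTTCTAGAACCTTCCGGAAggccc
Dnajb6, chr5:29735844-29735871, plus strand: agctccgaGAATCTTCCGGAAcgctaga
Hsph1, chr5:149636282-149636306, minus strand: tgcagaTTCTGGAAAGTTCtcctca

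The Hsph1 stretch lies after the RefSeq start site and the other stretches before theirs. In GENCODE vM21 all bases of the Hspe1, Dnajb6 and Hsph1 stretches also lie in annotated exons. The Hspe1 stretch holds 2 overlapping matches of 3 units, so that GAA and TTC alternate without a gap. Between knockdown and non-injected embryos Hspe1 was called higher and Hsph1 lower, and Hspd1 and Dnajb6 were not called. A match is a description of letters and not a site shown to be bound.

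A motif of the unfolded protein response of the endoplasmic reticulum, the ER stress element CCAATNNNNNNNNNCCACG, was searched for after values of these genes had been seen. It was in 3 of 69 members (4.35%), all of them chaperones of that compartment, beside 0.137% of all genes: Hspa5, Hsp90b1 and Dnajc3. None of the 3 was called in any comparison. Their stretches are shown because they carry the same motif, with Hsp90b1 holding it on both strands. All bases of the Hspa5 stretch lie in annotated exons, and none of the other two:
Hspa5, chr2:34772020-34772048, plus strand: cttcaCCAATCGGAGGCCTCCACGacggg
Hsp90b1, chr10:86705525-86705664, minus strand: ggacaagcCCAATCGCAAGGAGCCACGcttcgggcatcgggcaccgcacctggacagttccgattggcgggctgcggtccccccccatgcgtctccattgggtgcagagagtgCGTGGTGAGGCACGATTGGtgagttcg
Dnajc3, chr14:118937812-118937856, plus strand: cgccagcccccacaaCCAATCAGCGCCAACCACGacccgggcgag

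Most members were expressed. The mean normalized count, an average over all 16 libraries in arbitrary units, was at least 10 for 73 of 85 members, at least 100 for 57 and at least 1000 for 18. It lay above 0 but under 10 for 9 members. Dnajb8, Hspb3 and Hspb7 were listed at 0. Per kilobase of annotated exon the highest level was that of Dnajb9, a J protein of the endoplasmic reticulum, at 2089. Hsp90ab1 (1106), Hspa5 (987), Dnaja2 (950) and Hspb1 (834) followed on the same scale, and these orders have no error because no value per library is given.

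**Figure D1:**
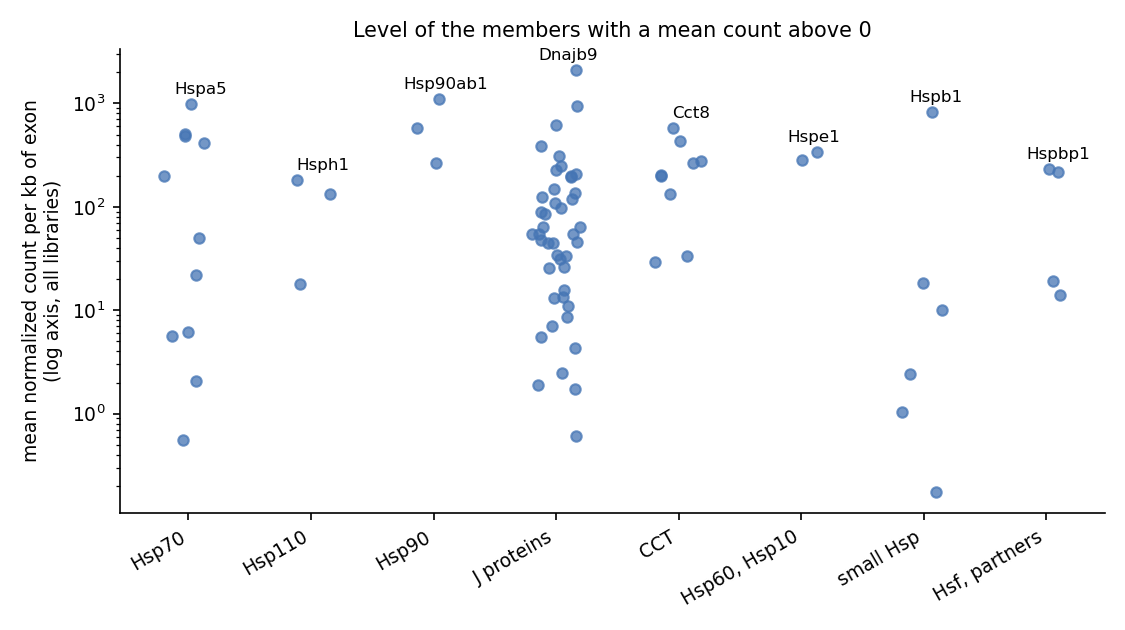
Mean normalized count per kilobase of annotated exon (log axis, arbitrary units, averaged over all libraries) for each member with a mean count above 0, grouped by family; each point is 1 gene and the highest of each family is named. Dnajb9 stands highest at 2089, and levels within the Hsp70, J protein and small heat shock families spread widely on the log axis.

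Within families the levels were far apart. Among cytosolic Hsp70 genes the constitutive Hspa8 stood at 487 per kilobase, whereas the inducible Hspa1a stood at 49.7 and Hspa1b at 2.05. Those last values are uncertain, because 60.3% of the 50-base words of the longest Hspa1a coding transcript also occur in transcripts of other genes, mainly Hspa1b, and 62.3% of those of Hspa1b occur mainly in Hspa1a. For Hspa8 the share was 73.2% and for Hsp90aa1 58.5%, mostly in predicted genes. Both Hspd1 (44.8%) and Hspe1 (36.1%) share words with their pseudogenes, and Hspb1 (51.6%) with Hsp25-ps1. Dnajb6 (35.8%), Dnajc17 (18.9%), Dnaja1 (18.7%), Dnajc5b (16.9%) and Hspa14 (15.6%) also share words with other genes, and some further members do at smaller shares. How the authors treated reads that fit several genes could not be learned from these sources. The fold changes of these genes carry that limit.

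Knockdown and non-injected embryos differed in 21 of the 73 members with an adjusted p, 6 higher and 15 lower in knockdown. That is 8.22% higher and 20.5% lower, against 7.41% and 7.76% of all 14948 genes with an adjusted p in the same comparison. Since abundant genes were called lower more often, the share matters at matched abundance: among genes with a mean count of at least 100, 15 of 57 members (26.3%) and 13.5% of all 7722 genes were called lower. The shares called higher there were 7.02% and 9.01%. The median log2 fold change of the 73 members with a mean count of at least 10 was -0.09, beside 0.05 for all genes at that count, and at a count of at least 100 the medians were -0.18 and -0.08. In whole embryos, fewer cells holding a transcript and less of it per cell cannot be told apart.

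**Figure D2:**
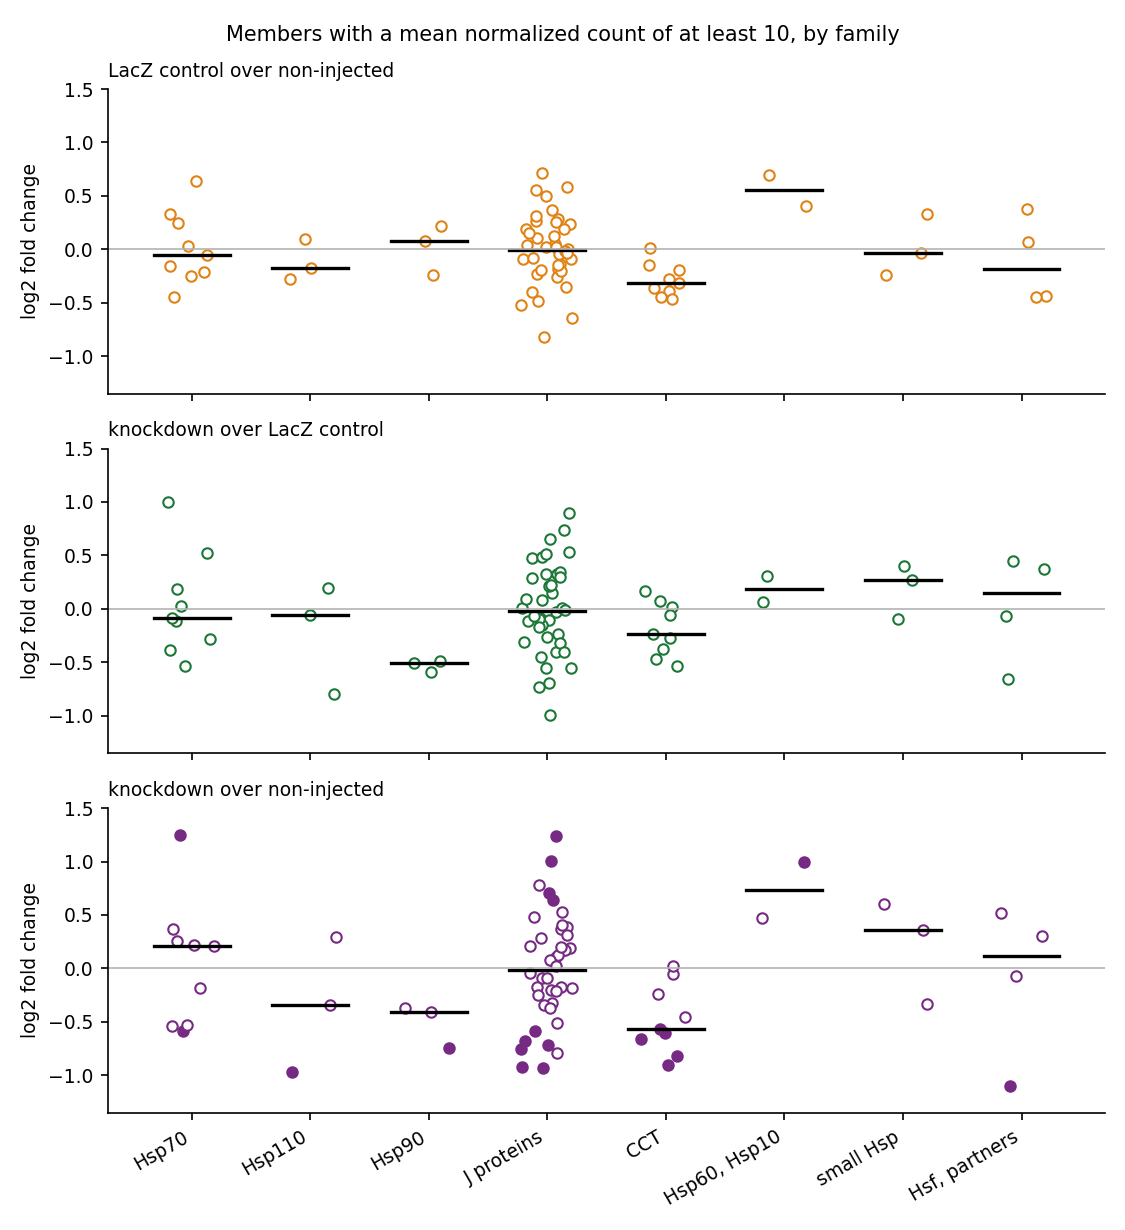
Log2 fold change of each member with a mean count of at least 10, by family, in the 3 comparisons of the authors' deposited tables; filled points have an adjusted p under 0.05 and black bars are family medians. Filled points occur in the bottom panel only, where 15 members lie below 0 and 6 above.

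The CCT chaperonin was the family with the most calls for its size in that comparison. Of its 9 members 5 (55.6%) were called lower in knockdown than in non-injected embryos, and the median was -0.57. Among all genes 7.76% were called lower, and 13.5% of those with a mean count of at least 100. The medians of all genes were 0.05 at a mean count of at least 10 and -0.08 at 100. In the authors' deposited table Cct4 stood at -0.91 ± 0.23 (adjusted p = 0.00389) and Tcp1, the first subunit of the ring, at -0.82 ± 0.20, a 1.76-fold difference (adjusted p = 0.00226). Cct3 (-0.66 ± 0.21, adjusted p = 0.0181), Cct2 (-0.60 ± 0.18, adjusted p = 0.0138) and Cct8 (-0.57 ± 0.21, adjusted p = 0.0438) completed the calls in the authors' deposited table. In GENCODE vM21 on GRCm38 Cct4 spans 22990519 to 23003780 of chromosome 11 and Tcp1 spans 12915701 to 12925067 of chromosome 17, both on the plus strand. The subunit genes did not all shift alike: Cct5 stood at -0.45 ± 0.20 (adjusted p = 0.112) and Cct7 at 0.02 ± 0.18 (adjusted p = 0.966) in the authors' deposited table. Cct6a, the remaining subunit of the ring, is annotated as a processed transcript in GENCODE vM21 and so falls outside the symbol rule for protein-coding genes. Its value in the authors' deposited table was -0.47 ± 0.16 (adjusted p = 0.0264). Cct6b and Cct8l1, relatives outside the common ring, were not called, with -0.05 ± 0.32 and -0.24 ± 0.30 in the authors' deposited table.

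In neither of the single steps was a ring gene called. From non-injected to LacZ control all 7 ring members other than Cct6a lay below 0, from -0.47 to -0.14 with a median of -0.36, in the authors' deposited table. From LacZ control to knockdown 5 of the 7 lay below 0, with a median of -0.28. In that step Tcp1 stood at -0.54 ± 0.19 and Cct4 at -0.47 ± 0.22 in the authors' deposited table (unadjusted p = 0.00551 and 0.0435, adjusted p = 0.131 and 0.318). Cct5 (0.01 ± 0.19) and Cct7 (0.16 ± 0.17) showed no fall there in the authors' deposited table. Exons of Tcp1, Cct7 and Cct8 overlap those of genes on the opposite strand (Acat3 and Mrpl18, Pradc1, and Usp16), and Smart-seq2 reads do not record the strand. Among the other called members exons of Dnajb9, Dnajb14, Dnajc5b and Hspe1 also overlap genes on the opposite strand.

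**Figure D3:**
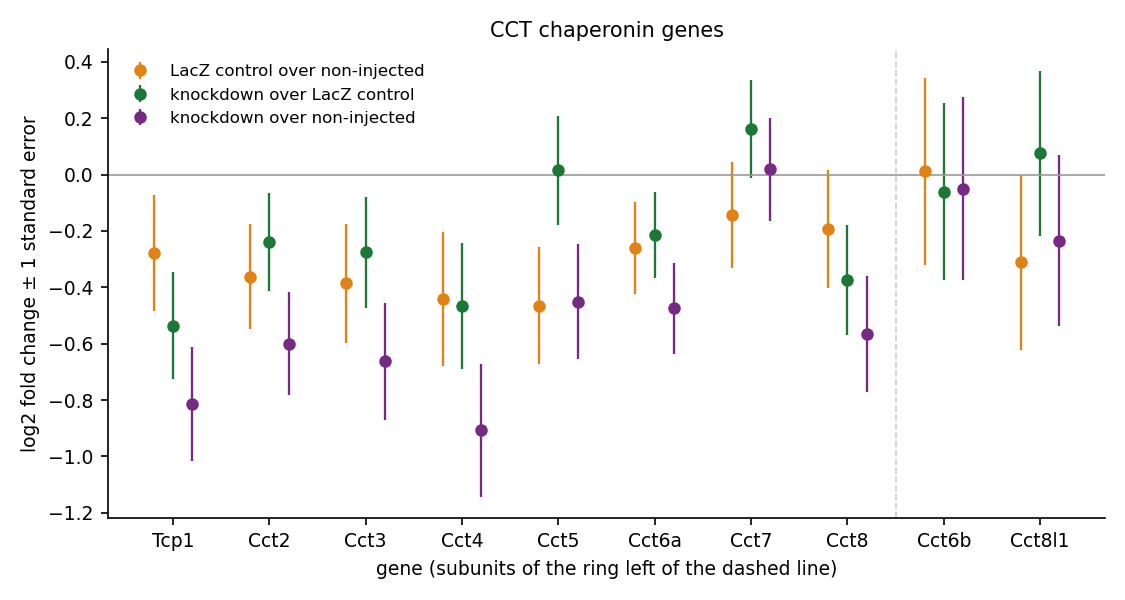
Log2 fold change ± 1 standard error of each CCT gene in the 3 comparisons of the authors' deposited tables; genes left of the dashed line form the ring. Knockdown over non-injected lies lowest for Cct4 (-0.91) and near 0 for Cct7 (0.02).

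None of the 3 Hsp90 genes was called between knockdown and LacZ control, and all 3 values were below 0. In the authors' deposited table for that comparison Hsp90aa1, the inducible cytosolic form, stood at -0.49 ± 0.19 (adjusted p = 0.175). Hsp90ab1, the constitutive form, stood at -0.50 ± 0.21 (adjusted p = 0.243), and Hsp90b1, the form of the endoplasmic reticulum, at -0.59 ± 0.22 (adjusted p = 0.145) in the authors' deposited table. Each had an unadjusted p under 0.05, as did 8.07% of all genes in the lower direction and 13.8% of those with a mean count of at least 100. From non-injected to LacZ control the authors' deposited table gave 0.08 ± 0.20, -0.24 ± 0.23 and 0.22 ± 0.24 for the same genes in that order. Only Hsp90ab1 of the 3 was called between knockdown and non-injected embryos, at -0.74 ± 0.22 (adjusted p = 0.0161), beside -0.41 ± 0.20 for Hsp90aa1 and -0.37 ± 0.23 for Hsp90b1 in the authors' deposited table.

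Among the Hsp70 genes one rose and one fell between knockdown and non-injected embryos. Hspa13, a microsomal Hsp70 of low level (mean count 42.1), rose by 1.25 ± 0.34 in the authors' deposited table, a 2.37-fold difference (adjusted p = 0.0105). The gene lies on the minus strand of chromosome 16, from 75745431 to 75767104. Most of that rise lay between LacZ control and knockdown (1.0 ± 0.33, adjusted p = 0.130 in the authors' deposited table). Hspa14, a partner of Hsp70 at the ribosome, fell by 0.58 ± 0.21 (adjusted p = 0.0465) in the authors' deposited table, and its exons overlap those of Gm45902 on the same strand. The constitutive Hspa8 stood at -0.53 ± 0.21 (adjusted p = 0.0637) and the ER chaperone Hspa5 at -0.53 ± 0.22 (adjusted p = 0.0924) in the authors' deposited table, both short of a call. The mitochondrial Hspa9 stood at -0.18 ± 0.18 and Hspa2 at 0.21 ± 0.25 in the authors' deposited table. The family median depends on which genes enter: it was 0.21 over the 9 genes with a mean count of at least 10 and -0.35 over the 6 with at least 100.

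The inducible Hsp70 genes, classical readouts of stress and of genome activation, were not called in any comparison. Hspa1b had no adjusted p in the 2 knockdown comparisons, so it could not be called there. In the authors' deposited table for LacZ control over non-injected Hspa1a stood at 0.64 ± 0.37 (adjusted p = 0.736) and Hspa1b at 0.65 ± 0.38 (adjusted p = 0.844). For knockdown over LacZ control the authors' deposited table gave -0.38 ± 0.35 for Hspa1a (adjusted p = 0.698) and -0.54 ± 0.39 for Hspa1b, without an adjusted p. For knockdown over non-injected the authors' deposited table gave 0.25 ± 0.36 for Hspa1a (adjusted p = 0.555) and 0.10 ± 0.38 for Hspa1b. Standard errors of this size leave room for a change of either sign in each of these comparisons.

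Both nucleotide exchange genes among the members with calls fell. Hspbp1 had the largest fall of all 85 members between knockdown and non-injected embryos, 1.11 ± 0.29 in the authors' deposited table, a 2.15-fold difference (adjusted p = 0.00619). It lies on the minus strand of chromosome 7, from 4660521 to 4685068. Hsph1, an Hsp110 protein, fell by 0.97 ± 0.32 (adjusted p = 0.0273), and most of it lay between LacZ control and knockdown, at -0.80 ± 0.31 (adjusted p = 0.179) in the authors' deposited table. The other Hsp110 genes were not called: Hspa4 stood at -0.34 ± 0.20 and Hspa4l at 0.29 ± 0.28 in the authors' deposited table for knockdown over non-injected. Of the 10 genes fixed as other exchange factors of Hsp70 and their kin, 1 was called in each of the 2 knockdown comparisons (10%, where 7.76% of all genes were called lower over non-injected and 0.533% over LacZ control). It was Bag5, at -0.91 ± 0.25 over LacZ control (adjusted p = 0.0442) and -0.88 ± 0.26 over non-injected (adjusted p = 0.0133) in the authors' deposited table.

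Among the 40 tested J proteins 4 (10%) rose and 6 (15.0%) fell between knockdown and non-injected embryos, with a median of -0.01. Among all genes with an adjusted p 7.41% rose and 7.76% fell, and 9.01% and 13.5% of those with a mean count of at least 100. The J protein shares cover tested genes of any count, so they are not matched in abundance to the second pair. The calls are given as single genes. Dnajb11, which serves Hspa5 in the endoplasmic reticulum, had the smallest adjusted p of all members in that comparison, at -0.93 ± 0.18 (adjusted p = 6.65e-05) in the authors' deposited table. Dnajb14 (-0.93 ± 0.21, adjusted p = 0.000838) and Dnajb12 (-0.68 ± 0.24, adjusted p = 0.0374), anchored in the ER membrane, also fell in the authors' deposited table. Dnajb9, a further ER partner of Hspa5 and the most abundant member, fell by 0.59 ± 0.21 (adjusted p = 0.0425) in the authors' deposited table. Dnajc21, known from assembly of the large ribosomal subunit, stood at -0.75 ± 0.25 (adjusted p = 0.0234) and Dnajc15, of the inner mitochondrial membrane, at -0.72 ± 0.22 (adjusted p = 0.0179) in the authors' deposited table.

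The J proteins that rose were others. Dnajc5g and Dnajc5b, testis-type relatives of the cysteine string protein, rose by 1.24 ± 0.34 (adjusted p = 0.00520) and 1.01 ± 0.28 (adjusted p = 0.00508) in the authors' deposited table. Dnajb1, the main cytosolic Hsp40, rose by 0.70 ± 0.21 (adjusted p = 0.0122) in the authors' deposited table. Dnajc8, known from spliceosomes, rose by 0.64 ± 0.18 (adjusted p = 0.00730) in the authors' deposited table. Abundant cytosolic relatives were not called: Dnaja1 stood at -0.33 ± 0.19, Dnaja2 at -0.04 ± 0.16 and Dnajb6 at -0.09 ± 0.18 in the authors' deposited table.

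By compartment, a grouping made after the values were seen, 10 members were placed in the ER. They were Hspa5, Hspa13, Hsp90b1, Dnajb9, Dnajb11, Dnajb12, Dnajb14, Dnajc1, Dnajc3 and Dnajc10. Of these 10, 4 were called lower and 1, Hspa13, higher between knockdown and non-injected embryos, with a median of -0.45. The placing may be incomplete, and the count and median hold for these genes only. Dnajc14 (0.52 ± 0.20), Dnajc18 (0.39 ± 0.24), Dnajc16 (0.21 ± 0.40) and Dnajc25 (-0.18 ± 0.38) were not placed there and were not called in the authors' deposited table. For all genes the shares called lower and higher were 7.76% and 7.41%, or 13.5% and 9.01% at a mean count of at least 100. The 8 mitochondrial members had 1 call in each direction (12.5%), near those shares, and a median of 0.30. Hspe1, the Hsp10 lid, rose by 1.0 ± 0.20 in the authors' deposited table, a 2.00-fold difference (adjusted p = 0.000119). Its partner Hspd1 stood at 0.47 ± 0.20 (adjusted p = 0.0959) in the authors' deposited table. Between LacZ control and non-injected embryos Hspe1 stood at 0.70 ± 0.20 (adjusted p = 0.0724) and Hspd1 at 0.41 ± 0.20 (adjusted p = 0.654) in the authors' deposited table. Their exons overlap on opposite strands (Hspd1 from 55077835 to 55088243 and Hspe1 from 55088132 to 55091307 of chromosome 1), so reads of the overlap cannot be assigned.

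**Figure D4:**
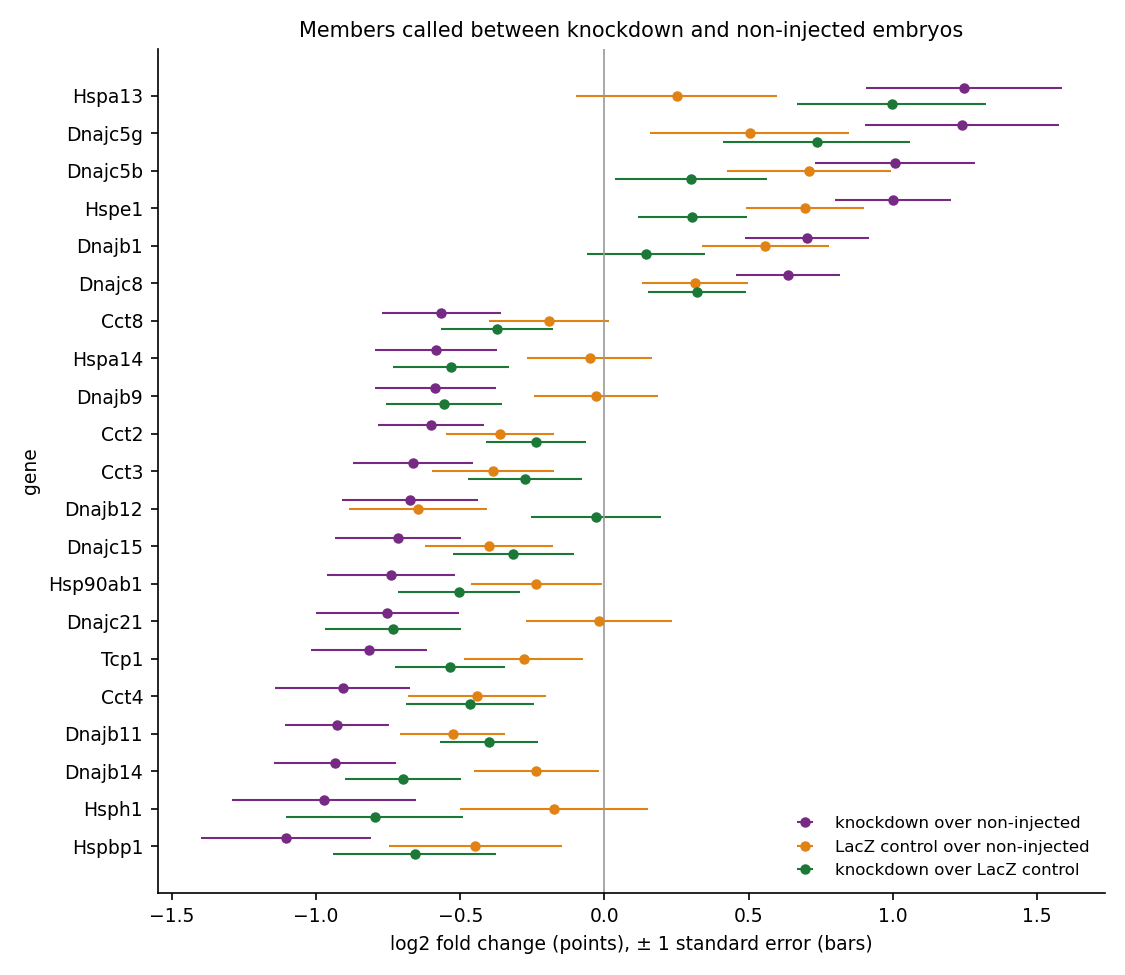
Log2 fold change (points) ± 1 standard error (bars) in the authors' deposited tables for the 21 members called between knockdown and non-injected embryos, with the same genes in the other comparisons. For each gene both steps lie on the same side of 0 as their sum, with the LacZ step near 0 for Dnajc21 (-0.02) and the knockdown step near 0 for Dnajb12 (-0.03).

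For all 21 called members the step from non-injected to LacZ control and the step from LacZ control to knockdown had the sign of their sum. Among the 15 that fell, the first step made up more than 50% of the log2 difference for 5 genes and less for 10, with a median of 34.3%. Dnajb12 (95.8%), Cct2 (60.3%) and Cct3 (58.3%) had the largest first-step shares of the fallen, and Dnajc21 (2.51%), Dnajb9 (4.95%) and Hspa14 (8.80%) the smallest. Among the 6 that rose, the median share was 59.5%, with Dnajb1 at 79.5% and Hspa13 at 20.1%. These shares carry the errors of both steps and none was tested, and selecting genes by a large sum favours steps of equal sign.

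Knockdown over LacZ control gave 0 calls among the 74 members with an adjusted p by DESeq2, where 0.366% of all 15572 genes were called higher and 0.533% lower. At an unadjusted p under 0.05, 15 members (20.3%) were lower and 5 (6.76%) higher, beside 8.07% and 6.60% of all genes. At a mean count of at least 100 the lower share was 24.6% of 57 members and 13.8% of all genes. The nearest to a call were Dnajb14 (-0.70 ± 0.20, adjusted p = 0.0565) and Dnajc21 (-0.73 ± 0.24, adjusted p = 0.0828) in the authors' deposited table. Adjusted over genes with a mean count of at least 100 alone, Dnajb14 passed, at 0.0435.

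LacZ control over non-injected gave 1 call among 82 members with an adjusted p (1.22% lower, none higher), where 0.529% of 29288 genes were called higher and 0.263% lower. That call, Hspb9, rests on a mean count of 0.754. Its log2 fold change was -0.09 ± 0.17 in the authors' deposited table, while its Wald statistic was -5.04 and its adjusted p 0.000300. At an unadjusted p under 0.05 there were 5 members higher (6.10%) and 6 lower (7.32%, Hspb9 among them), beside 4.43% and 2.96% of all genes. At a mean count of at least 100 the shares were near those of all genes. They were 8.77% higher and 7.02% lower for members, and 8.64% and 6.02% for all genes. After Hspe1, the members nearest to a call in the authors' deposited table were Dnajb11 (-0.53 ± 0.18, adjusted p = 0.220) and Dnajb12 (-0.65 ± 0.24, adjusted p = 0.304), and Dnajb1 stood at 0.56 ± 0.22 (adjusted p = 0.375).

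The heat shock factors and small heat shock proteins were not called apart from Hspb9. Only 3 of the 8 small heat shock genes had an adjusted p in the 2 knockdown comparisons, so the others could not be called there. Hsf1, the main stress factor, stood at 0.51 ± 0.22 (adjusted p = 0.0911) and Hsf2 at 0.31 ± 0.32 (adjusted p = 0.562) in the authors' deposited table for knockdown over non-injected. Hspb1, the abundant small heat shock protein, stood at 0.36 ± 0.25 there (adjusted p = 0.383), and its values were 0.40 ± 0.24 over LacZ control and -0.04 ± 0.26 for LacZ control over non-injected in the authors' deposited tables. Hspb2, Hspb8 and Hspb9 had no adjusted p in the 2 knockdown comparisons, and Hspb3 and Hspb7 were listed at 0. Hspb6 and Hspb11 were tested and not called.

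Partners of these machines were taken from lists of genes outside the symbol rule. Their counts are read against the 7.76% of all genes called lower and 7.41% called higher between knockdown and non-injected embryos (13.5% and 9.01% at a mean count of at least 100). Of 28 tested Hsp90 co-chaperones 3 fell (10.7%), which is near that background, and Nudcd3 rose by 0.76 ± 0.24 (adjusted p = 0.0200) in the authors' deposited table. The 3 were Ruvbl1 (-0.76 ± 0.21, adjusted p = 0.00615), Ppid (-0.78 ± 0.26, adjusted p = 0.0293) and Stip1 (-0.53 ± 0.19, adjusted p = 0.0454), the last of which hands clients from Hsp70 to Hsp90, in the authors' deposited table. Prefoldin delivers actin and tubulin to the CCT ring: of 12 tested genes of prefoldin and CCT cofactors 2 fell (16.7%), Pfdn6 (-0.98 ± 0.28, adjusted p = 0.00902) and Pdrg1 (-0.82 ± 0.24, adjusted p = 0.0119) in the authors' deposited table. Of 20 genes of ER folding and the unfolded protein response 2 fell (10%) and none rose, the stress kinase Eif2ak3 (-0.90 ± 0.26, adjusted p = 0.00937) and the disulfide isomerase P4hb (-0.67 ± 0.22, adjusted p = 0.0223) in the authors' deposited table. Both counts are also near the background.

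Mitochondrial proteases and chaperones had 3 calls among 8, 25.0% lower and 12.5% higher. Among all genes the shares were 7.76% and 7.41%, or 13.5% and 9.01% at a mean count of at least 100. With 8 genes the calls are given as single genes. Clpp (-0.82 ± 0.21, adjusted p = 0.00367) and Clpx (-0.80 ± 0.17, adjusted p = 0.000287), the parts of the matrix protease, fell, and the disaggregase Clpb rose by 1.04 ± 0.27 (adjusted p = 0.00317) in the authors' deposited table. Of Hsf3, Hsf4, Hsf5 and the Hsf1-binding Hsbp1 and Hsbp1l1 none was called. Hsf3 and Hsf4 had no adjusted p in the knockdown comparisons, so they could not be called there. The same held for Cryaa and Cryab, which had mean counts of 2.73 and 2.03. None of these lists had a call between LacZ control and non-injected embryos, and Bag5 was their only call between knockdown and LacZ control.

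Markers of the embryo were looked at in the same comparisons. Between knockdown and non-injected embryos 4 of 6 oocyte markers (Bmp15, Gdf9, Oosp1 and Zp2) and 2 of 6 markers of the 2-cell stage (Tdpoz4 and Zscan4c) were called higher, and none lower, where 7.41% of all genes and 9.01% of those with a mean count of at least 100 were called higher. Neither list had a call in the other comparisons. The medians of the oocyte and 2-cell lists were 0.46 and 0.64 for LacZ control over non-injected. For knockdown over LacZ control they were 0.18 and 0.004. Of 8 markers of cumulus and granulosa cells Cyp19a1 and Tnfaip6 had mean counts of 16.1 and 36.5, Inhba was listed at 0 and the rest were under 10, with no calls. All 6 sperm markers were under 10. Their part in the changes of the chaperone genes was not tested.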

How the data were processed

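Polyadenylated RNA was sequenced with Smart-seq2, per the labels' protocols. The submitters' processing notes name STAR 2.5.2b, SAMtools, HTSeq 0.9.1 and DESeq2 1.18.1 with the build GRCm38.p5. That RUVSeq factors were used and fold changes shrunken is known only from the names of the deposited tables. Per the file headers, the deposited gene tables give a mean normalized count (a signal in arbitrary units), a log2 fold change and its standard error, a Wald statistic (a score), and p-values before and after adjustment. They hold 0 columns of single libraries, so the depth per library is unknown and no model was refitted. Repeat tables were not used here.

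Gene identifiers, without their version, were looked up in GENCODE vM21 (GRCm38) (49326 of 49585 had a symbol). Exon lengths and overlaps come from that annotation. Adjusted p-values were taken as deposited, and Benjamini-Hochberg adjustment over the same genes came within 1.84e-05 of them. Python 3.11.15, pandas 2.3.3 and scipy 1.17.1 were used, and the adjustment and motif search were tested on simulated data. Medians cover genes with a mean count of at least 10. Genes named in the text are all called members, the most abundant of each family, a preset list of well-known members, those nearest the threshold, and called genes of the partner lists. The members and lists were chosen with earlier results of these data known. Alternatives were other sets of genes for the adjustment, other thresholds, and fewer members.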

Additional observations from a re-analysis of the deposited data

How the results depend on the processing

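Counts of called members were recomputed under 7 alternatives for each comparison and direction. They moved by more than 1.5 times in few cases. For knockdown over LacZ control, 0 members called lower became 1 with adjustment over genes with a mean count of at least 100 and 2 at an adjusted p under 0.1. For knockdown over non-injected, 15 lower became 5 at an adjusted p under 0.01. For LacZ control over non-injected, 0 higher became 1 at an adjusted p under 0.1, and 1 lower became 0 with adjustment over genes with a mean count of at least 10 or of at least 100. The Hsp70 median for knockdown over non-injected moved from 0.21 to -0.35 at a mean count of at least 100, and to -0.35 without members whose exons overlap the opposite strand; the other 67 recomputed medians moved by less than the median standard error of their members. Adjusted over every gene with a p-value, 5 calls between knockdown and non-injected embryos were lost: Cct8 (0.0883), Dnajb12 (0.0757), Dnajb9 (0.0857), Hspa14 (0.0938) and Hsph1 (0.0553). Adjusted over genes with a mean count of at least 100, Hspa8 passed (0.0441). No paired analysis was possible because the tables hold no values of single libraries, and for the same reason leaving out libraries and other scalings were not run. Shrinkage pulls weakly expressed genes towards 0.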

Other observations

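Of the 232 genes called between LacZ control and non-injected embryos, 95 had a mean normalized count under 1, among them Hspb9. The corresponding number was 0 in both knockdown comparisons. For Hspb9 the log2 fold change of knockdown over non-injected was 0.06 in the authors' deposited table while its Wald statistic there was -3.15, so that the shrunken value and the test differ in sign. Such differences of sign occurred for 5.67% of all 33028 genes with a statistic in that comparison, and for 1 of 82 members. In knockdown over LacZ control they occurred for Dnajc10 and Dnajc25, in LacZ control over non-injected for no member.

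A few members outside the calls had opposite values in the 2 steps. Dnajc28 stood at -0.82 ± 0.38 in LacZ control over non-injected and 0.90 ± 0.36 in knockdown over LacZ control, and 0.08 ± 0.37 in their sum, in the authors' deposited tables, at a mean count of 48.0. Dnaja2 stood at 0.26 ± 0.17 and -0.31 ± 0.15 in the same order in the authors' deposited tables, with a mean count of 2827. Dnajc27 had the lowest value of any member with a mean count of at least 10 in knockdown over LacZ control, -0.99 ± 0.38 in the authors' deposited table (adjusted p = 0.150). These genes were picked after their values were seen, and the steps share the LacZ libraries.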
